A study of Mus musculus with 6 samples.

Results

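The transcriptome of LPS-matured dendritic cells lacking Mettl3 was compared with that of wild-type cells at the 0 h time of an actinomycin D experiment, that is, before transcription was blocked. All autosomal genes whose mean over both libraries reached 1 RPKM (reads per kilobase of transcript, scaled to the depth of the library) entered the comparison, 10619 of the 22662 autosomal genes in a table of 23863 rows. Genes were chosen by their mean level over both libraries. Near 1 RPKM a gene can pass because it is high in 1 genotype, so there the filter is not independent of the difference. Each genotype had 1 library at 0 h out of 6 libraries in the experiment, so the values describe 2 cultures, no value has a replicate error and no p-value is given. Differences between genotypes, cultures, mice and library preparations cannot be told apart.

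The KO library came from bone marrow-derived dendritic cells (BMDC) labelled Mettl3-/-, for which the study's methods describe Mettl3 fl/fl CD11c-Cre mice, in which Cre is expressed from the CD11c promoter and removes an early part of Mettl3 only in cells that have switched on that promoter. The WT library came from BMDC labelled wildtype, for which the methods give Mettl3 fl/fl littermates. Both cultures were of the C57BL/6 strain and came from mice 6 weeks old. Bone marrow cells were cultured in 10 ng/ml GM-CSF together with IL-4 at 1 ng/ml, and CD11c-positive cells were taken with beads on day 5. Maturation was in 100 ng/ml LPS over 24 h, and both received ERCC spike-in transcripts during RNA preparation. The methods give 2 pairs of wild-type and knockout littermates for the lifetime experiment but not which mouse gave which library, and the titles carry D2 for KO and D3 for WT with no explanation.

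Mettl3 is the enzyme of the complex which places N6-methyladenosine (m6A) on mRNA, a mark whose reader proteins act on the decay and translation of the transcripts that carry it. LPS is sensed by TLR4, which signals through MyD88 and Tirap to NF-kB and MAP kinases, and through Ticam1 (Trif) to IRF3 and type I interferon. The first arm is known for inducing inflammatory cytokines and neutrophil-attracting chemokines, and the second for interferon-stimulated genes (ISGs).

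Approximate depth was 20000000 reads in KO and 22300000 in WT, which for a transcript of 2 kb gives a counting error of the log2 ratio of 0.31 at 1 RPKM, 0.14 at 5 RPKM and 0.04 at 50 RPKM. The ERCC transcripts, which carry technical error alone, had an SD of log2 ratios of 0.23 over the 19 of 5 to 50 RPKM and 0.10 over the 25 above 50 RPKM, against 0.43 and 0.31 for genes of the same levels. Among the 13 ERCC transcripts of 1 to 5 RPKM the SD was 1.48, the lowest log2 ratio was -4.69 and 4 differed by 1.5-fold or more. The 2805 genes of that level had an SD of 0.57, so the ERCC SD there does not give the error of genes. Given the 4 of 13 and the counting error, ratios of genes below a mean of 5 RPKM are called poorly determined below. This holds for every gene named at such a level, also where it is not repeated. Mettl3 itself (chromosome 14, 52294841 to 52308741, GRCm38) was read at 6.99 RPKM in KO and 7.79 RPKM in WT (log2 ratio -0.18), and at 3 h and 6 h it was higher in KO, with ratios of 0.83 and 0.54. RPKM covers the whole gene and the deletion only exons near its start, so this does not check the labels. The study reports loss of Mettl3 mRNA and protein in KO cells, and removal of the deleted exons in its RNA sequencing. Why the whole-gene level was not lower in KO here was not tested. The libraries differed in sex-linked transcripts. Xist, the X-inactivation RNA, was at 33.9 RPKM in KO and 0.041 RPKM in WT, and the Y-linked Ddx3y at 0.019 RPKM in KO and 25.4 RPKM in WT, so the KO culture read as female and the WT culture as male, and genotype and sex cannot be told apart. X-linked genes were left out of all counts below.

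Of the 10619 genes, 499 were 1.5-fold or more higher in KO (4.7% of the genes tested) and 315 were 1.5-fold or more lower (2.97%). Ratios were taken as log2 of RPKM plus 0.1 and set relative to the median gene, and 1.5-fold is the fold the study's methods use for differential expression. The word counted is used below for genes past it, and the shares 4.7% and 2.97% are the background against which each gene list is to be read. At 2-fold the numbers were 167 higher (1.57%) and 92 lower (0.866%). Above a mean of 5 RPKM, 238 of 7814 genes were counted as higher (3.05%) and 136 as lower (1.74%). The median gene itself lay at 0.03 on the RPKM scale and at 0.39 when libraries were scaled to the ERCC transcripts. With ERCC scaling and no centring, higher genes numbered 2337 and lower genes 98, so the split of higher against lower calls holds relative to the median gene only.

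**Figure D1:**
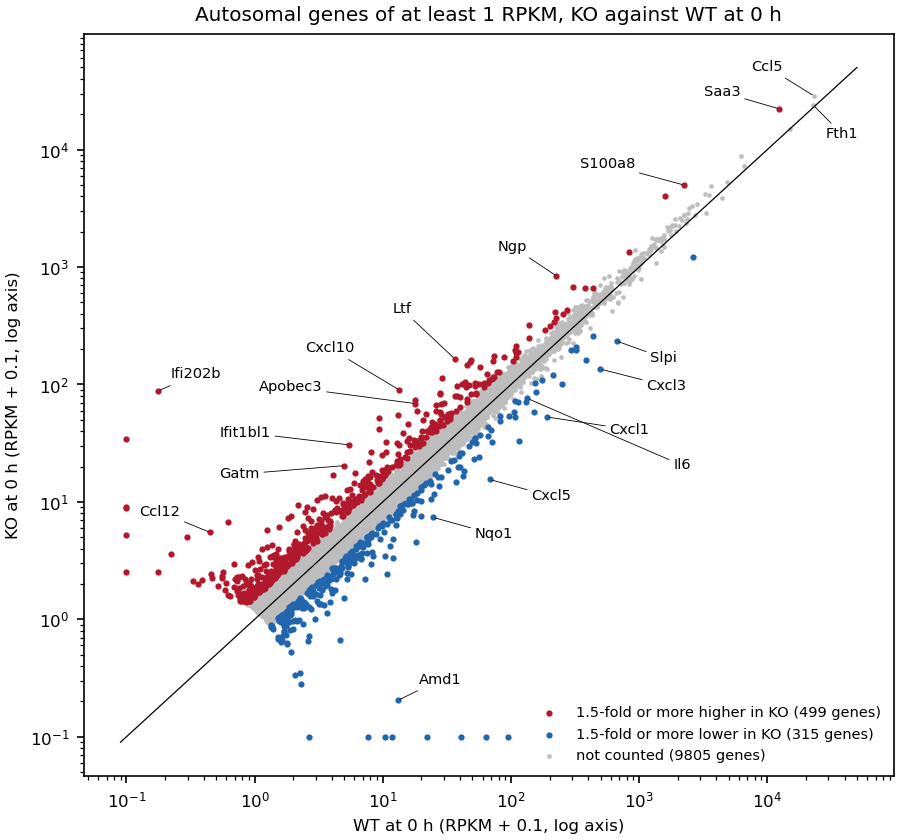
Level of each tested gene in KO (vertical) against WT (horizontal) at 0 h, in RPKM plus 0.1 on log axes, with 1 point per gene and the line of equal levels. Genes counted as higher in KO (499, red) and as lower (315, blue) were few beside the 9805 not counted (grey), and the points in a straight row at the lower and left edges are genes listed at 0 in 1 library.

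The most abundant mRNAs of both cultures were the chemokine Ccl5 (28649 RPKM in KO and 23084 RPKM in WT), the ferritin heavy chain Fth1 (23911 RPKM in KO and 22820 RPKM in WT), the acute-phase protein Saa3 (22257 RPKM in KO and 12323 RPKM in WT) and the ferritin light chain Ftl1 (15092 RPKM in KO and 14983 RPKM in WT). Of these only Saa3 was counted, with a log2 ratio of 0.83. Among the 10 most abundant genes of the KO library the calgranulin S100a8 was counted as well, and Actb, Lyz2, Lcn2, B2m and Cst3 were not, with log2 ratios between 0.09 for Cst3 and 0.48 for Actb. The 10 most abundant autosomal genes took 19.1% of summed RPKM in KO and 17.4% in WT.

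The cells expressed mature dendritic cell genes at like levels in both cultures. Of 19 tested dendritic cell markers, 0 were counted as higher and 1 as lower, with a median log2 ratio of 0.03, and their summed level was 16750 RPKM in KO and 16250 RPKM in WT. Ccr7, the receptor that guides mature cells to lymph nodes, was at 1863 RPKM in KO and 1771 RPKM in WT. Zbtb46, a transcription factor of the classical dendritic cell lineage, was at 22.6 RPKM in KO and 23.9 RPKM in WT. Itgax, which encodes CD11c, was at 10.0 RPKM in KO and 13.1 RPKM in WT (log2 ratio -0.40). The marker counted as lower was Dpp4 (CD26), at 7.19 RPKM in KO and 12.8 RPKM in WT. T and NK cell markers were at low levels, with a summed level of 17.5 RPKM in KO and 19.9 RPKM in WT over the 13 in the table, and Pax5, a transcription factor that defines B cells, was listed at 0 in both.

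Neutrophil granule and neutrophil-associated transcripts were the list with the highest median. Of 22 tested, 16 were counted as higher in KO and 1 as lower, with a median log2 ratio of 1.18 and a summed level of 16530 RPKM in KO and 8826 RPKM in WT. Lactoferrin (Ltf), a secondary granule protein, was at 165 RPKM in KO and 36.4 RPKM in WT, a log2 ratio of 2.15. Ngp, another secondary granule protein, was at 844 RPKM in KO and 225 RPKM in WT, and Camp, the cathelicidin antimicrobial peptide, at 161 RPKM in KO and 48.6 RPKM in WT. The calgranulin pair S100a8 and S100a9 stood at 4991 and 4036 RPKM in KO, against 2238 and 1591 RPKM in WT. Of the 22, 20 lay above the median gene and 2 below it. The 2 were Mmp8, a granule collagenase, at 34.8 RPKM in KO and 52.2 RPKM in WT, and the formyl peptide receptor Fpr1, at 318 RPKM in KO and 313 RPKM in WT. The primary granule genes Mpo and Elane, which mark early neutrophil precursors, were under the filter, at 0.583 and 0.165 RPKM in KO, against 0.499 and 0.077 RPKM in WT.

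Monocyte markers followed, with 5 of 10 counted as higher and 0 as lower (median 0.83). Ifitm6, an interferon-inducible membrane protein of monocytes, was at 73.2 RPKM in KO and 17.9 RPKM in WT. Plac8 was at 85.2 RPKM in KO and 28.1 RPKM in WT, and Ccr2, the receptor for monocyte chemokines, at 3.35 RPKM in KO and 1.28 RPKM in WT. Ly6c2 was not counted, at 523 RPKM in KO and 385 RPKM in WT (log2 ratio 0.42). Below the median gene were 2 of the 10, Cx3cr1 (8.79 RPKM in KO and 9.05 RPKM in WT) and Vcan (1.64 RPKM in KO and 1.94 RPKM in WT). Of 18 macrophage markers, 3 were counted as higher and 0 as lower (median 0.30). These were Fcgr1 (58.8 RPKM in KO and 18.5 RPKM in WT), Apoe, the lipid carrier (322 RPKM in KO and 138 RPKM in WT), and the complement subunit C1qa (6.02 RPKM in KO and 3.6 RPKM in WT). The macrophage genes Csf1r, at 132 RPKM in KO and 128 RPKM in WT, and Cd68, at 270 RPKM in both, were not counted, and Adgre1 (F4/80) stood at 224 RPKM in KO and 270 RPKM in WT. In bulk RNA a larger share of cells of a type cannot be told apart from more RNA of these genes per cell, and the part of such cells in the results below was not tested.

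Receptors for immunoglobulin and complement were on the high side as well, with 5 of 12 counted as higher, 0 as lower and a median of 0.41. Fcgr1 and C1qa, given above as macrophage markers, are among the 5. Fcgr4, an activating receptor for IgG, was at 66.9 RPKM in KO and 25.9 RPKM in WT, and the inhibitory Fcgr2b at 104 RPKM in KO and 61.7 RPKM in WT. The common signalling chain Fcer1g was at 1687 RPKM in KO and 1356 RPKM in WT (log2 ratio 0.29), under the threshold.

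**Figure D2:**
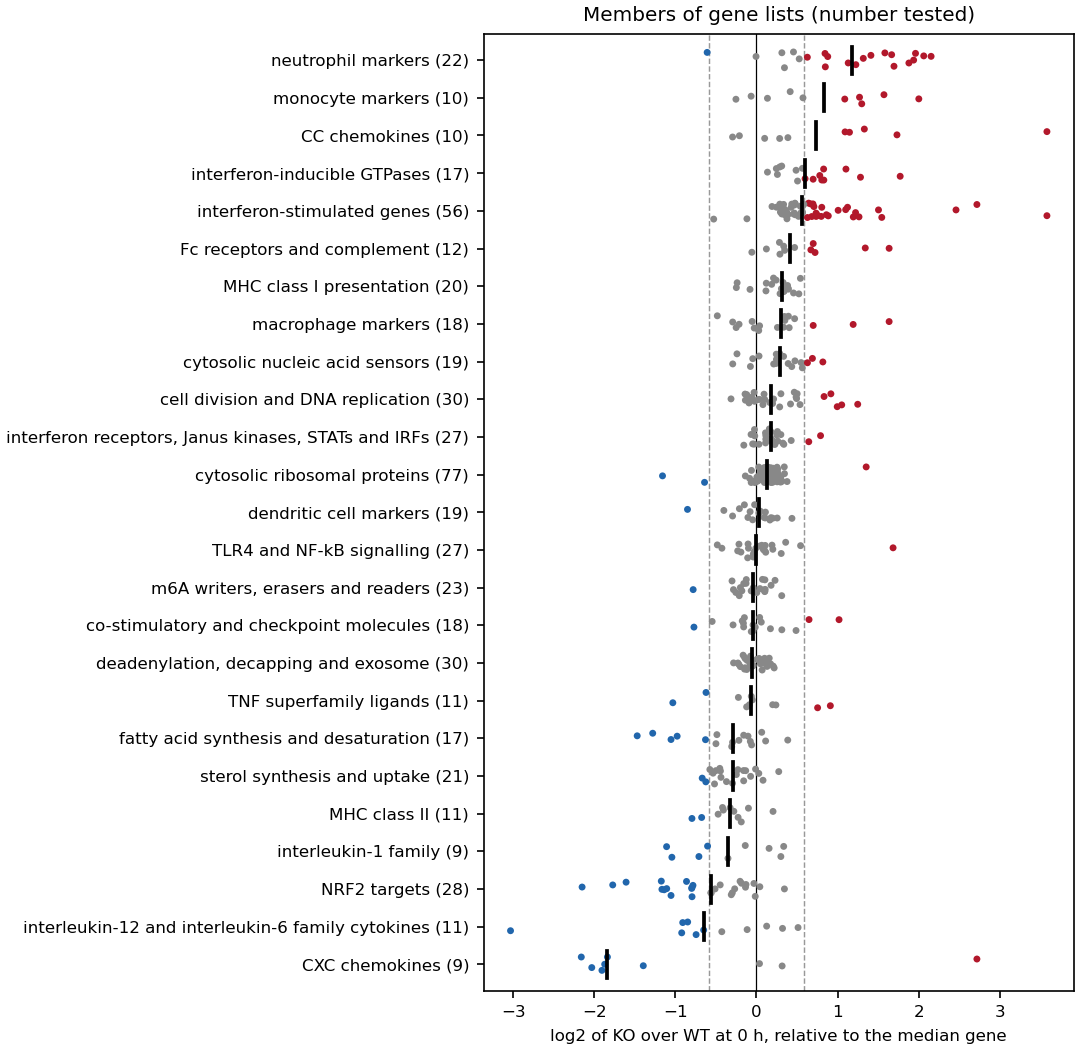
Log2 of KO over WT at 0 h, relative to the median gene, for the tested members of 25 gene lists (1 point per gene, vertical bar at the median, dashed lines at 1.5-fold, red counted as higher and blue as lower). Neutrophil markers (median 1.18) stand at the top and CXC chemokines (median -1.84) at the bottom, and dendritic cell markers lie around 0.

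Many interferon-stimulated genes were higher in KO. Of 56 tested, 24 were counted as higher and 0 as lower, 54 lay above the median gene, and the median log2 ratio was 0.56. Their summed level was 8856 RPKM in KO and 5737 RPKM in WT. The largest ratios were those of 2 chemokines and 2 members of the Ifit family, which bind foreign RNA. Ccl12 was at 5.40 RPKM in KO and 0.351 RPKM in WT (log2 ratio 3.58), a mean level at which ratios were poorly determined. Cxcl10, which attracts activated T cells, was at 89.8 RPKM in KO and 13.3 RPKM in WT (log2 ratio 2.72), Ifit1bl1 at 30.5 RPKM in KO and 5.36 RPKM in WT, and Ifit2 at 83.6 RPKM in KO and 28.1 RPKM in WT. At the other end of the list Xaf1, a pro-apoptotic factor, was at 43.1 RPKM in KO and 61.1 RPKM in WT, and Epsti1 at 155 RPKM in KO and 165 RPKM in WT, the only members below the median gene.

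The interferon-inducible GTPases, which attack vacuoles that hold pathogens, behaved alike, with 9 of 17 counted as higher, 0 as lower and a median of 0.60. Iigp1 was at 3.86 RPKM in KO and 1.04 RPKM in WT, Tgtp1 at 31.6 RPKM in KO and 12.7 RPKM in WT, and Tgtp2 at 34.8 RPKM in KO and 15.9 RPKM in WT. Tgtp1 and Tgtp2 are near-identical copies and cannot be told apart with certainty. The guanylate-binding protein Gbp2, by contrast, was at 199 RPKM in KO and 178 RPKM in WT and was not counted.

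Most genes upstream of these that passed the filter were not counted. Of 27 receptors, Janus kinases, STATs and interferon regulatory factors, 2 were counted as higher and 0 as lower (median 0.18). Irf7, the regulator that amplifies type I interferon, was at 662 RPKM in KO and 376 RPKM in WT (log2 ratio 0.79), and Stat2, which carries the signal of type I interferon to the nucleus, at 116 RPKM in KO and 72.9 RPKM in WT (0.65). The receptor chain Ifnar1 was at 25.11 RPKM in KO and 25.03 RPKM in WT. The kinase Jak1 was at 48.9 RPKM in both, and Irf4 at 17.5 RPKM in KO and 17.8 RPKM in WT. Ifnb1, the ligand itself, was under the filter, at 1.57 RPKM in KO and 0.125 RPKM in WT (log2 ratio 2.87), a level at which ratios were poorly determined. Socs1, an inhibitor of cytokine receptor signalling, was at 143 RPKM in KO and 104 RPKM in WT (log2 ratio 0.43), under the threshold. Among cytosolic nucleic acid sensors and related nucleases, 3 of 19 were counted as higher and 0 as lower (median 0.29). Trex1, the exonuclease that removes cytosolic DNA, was at 368 RPKM in KO and 224 RPKM in WT, Tlr3 at 3.41 RPKM in KO and 1.86 RPKM in WT, and the DNA-binding Ifi204 at 83.2 RPKM in KO and 52.8 RPKM in WT.

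The gene with the highest ratio of all those named was Ifi202b, an interferon-inducible DNA-binding protein whose expression is known to differ between inbred mouse strains. It was at 88.0 RPKM in KO and 0.077 RPKM in WT, a log2 ratio of 8.94 that depends on the pseudocount because the WT level is close to 0. The ratio was 8.80 at 3 h and 8.10 at 6 h of actinomycin D. Ifi202b lies at 173962569 to 173982844 on chromosome 1. Within 5 Mb of it, a window chosen after the values were seen, 10 of 73 tested genes were counted as higher (13.7%) and 1 as lower. Among the 10 were Ifi202b itself, Fcgr4, Fcgr2b and Pydc3, a member of the Ifi202b family, at 6.60 RPKM in KO and 0.522 RPKM in WT. Members of this family resemble each other, so reads may be shared among them. Whether the cultures differed in genetic background was not tested.

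Short promoter stretches are shown because the motif of interferon signalling was more frequent among genes higher in KO. An interferon-stimulated response element, searched on both strands as GAAA, any 2 bases and GAAA again, from 250 bases before to 50 after each start site, was present in 11.8% of 389 genes counted as higher, 2.42% of 248 counted as lower and 4.02% of all 8573 tested genes with a promoter entry. Of ISGs with a promoter entry, 50% of 44 held it. Among the genes counted as higher that are in neither interferon list the share was 8.49% of 365. The stretches below come from RefSeq promoters of GRCm38.p6, are written 5′ to 3′ on the strand of the gene, and have the motif in capitals, which appears as TTTC, 2 bases and TTTC where it lies on the opposite strand.
Cxcl10 (chr5:92349083-92349112): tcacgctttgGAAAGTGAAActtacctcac
Ifit1bl1 (chr19:34602053-34602082): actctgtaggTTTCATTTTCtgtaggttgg
Apobec3 (chr15:79892258-79892287): catcagttagTTTCCCTTTCtctttgcgat
Tgtp1 (chr11:48992304-48992333): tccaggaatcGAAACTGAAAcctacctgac
Tgtp2 (chr11:49064263-49064292): tccaggaatcGAAACCGAAAcctactctga
Fcgr4 (chr1:171018843-171018872): ggtgtttctgGAAAAGGAAActggtgagat
Saa3 (chr7:46715782-46715811): gttatcttctGAAAGAGAAAttatgggtaa
Apobec3, a cytidine deaminase that restricts retroviruses, was at 68.7 RPKM in KO and 17.8 RPKM in WT. Apobec3, Fcgr4 and Saa3 are in neither interferon list. Gbp2, which was not counted, held the same motif, so a match in this window did not go with a difference in every gene.

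Most CXC chemokines were lower in KO, with 6 of 9 tested counted as lower, 1 as higher and a median of -1.84, and Cxcl10 was the one higher. The 6 are ligands known for neutrophil attraction or platelet chemokines, and all lie in a single cluster on chromosome 5, between 90759298 and 90905938. Cxcl3 was at 135 RPKM in KO and 498 RPKM in WT (log2 ratio -1.91). Cxcl1 was at 52.8 RPKM in KO and 190 RPKM in WT (-1.87), and Cxcl2 at 32.8 RPKM in KO and 115 RPKM in WT (-1.84). The other members had log2 ratios between -2.16 and -1.40. Cxcl5 was at 15.4 RPKM in KO and 68.1 RPKM in WT (-2.16), Ppbp at 4.43 RPKM in KO and 18.1 RPKM in WT (-2.03), and Pf4, platelet factor 4, at 58.6 RPKM in KO and 152 RPKM in WT (-1.40). They stayed counted as lower with ERCC scaling, where the list median was -1.45. The study's list of reduced transcripts holds 3 of the 9, and over the other 6 the count was 3 lower and 1 higher. Cxcl16 (455 RPKM in KO and 436 RPKM in WT) and Cxcl14 (16.7 RPKM in KO and 13.1 RPKM in WT), which are not part of the cluster, were not counted. Within 5 Mb of Cxcl1, again a window chosen after the values were seen, 2 of 32 tested genes were counted as higher and 9 as lower (28.1%). The 6 chemokines of the cluster are among the 9 and Cxcl10 is among the 2, so the share mostly repeats the cluster.

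An NF-kB motif, searched on both strands as GGGA, any 1 base and TTTCC, was rare in promoters, in 1.61% of genes counted as lower, 1.29% of those counted as higher and 0.525% of all. The genes counted as lower that hold it are shown because they are 3 of the 6 chemokines and Il6, which carry it at a like distance from their start sites, at -71 in Cxcl1, -97 in Cxcl2, -73 in Cxcl3 and -44 in Il6. None of these promoters held either of the other motifs searched.
Cxcl1 (chr5:90891164-90891193): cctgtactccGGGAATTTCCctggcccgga
Cxcl2 (chr5:90903792-90903821): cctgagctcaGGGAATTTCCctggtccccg
Cxcl3 (chr5:90786018-90786047): gagctgcgggGGGAATTTCCccagcccggg
Il6 (chr5:30013060-30013089): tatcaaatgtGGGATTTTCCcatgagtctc
Ltb, which was counted as higher in KO (16.9 RPKM in KO and 8.79 RPKM in WT), held the same motif, as did B2m, which was not counted (7211 RPKM in KO and 6531 RPKM in WT).

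CC chemokines went the other way, with 5 of 10 counted as higher, 0 as lower and a median of 0.74. Over the members with a mean of at least 5 RPKM the median was 0.38. Ccl7, a monocyte attractant, was at 10.99 RPKM in KO and 3.18 RPKM in WT, and Ccl9 at 55.6 RPKM in KO and 21.7 RPKM in WT. Ccl6 was at 59.0 RPKM in KO and 26.1 RPKM in WT, and Ccl4, which attracts monocytes and T cells, at 79.8 RPKM in KO and 36.7 RPKM in WT. Ccl12, given above, was the fifth, at a level where ratios were poorly determined. The chemokines typical of mature dendritic cells were not counted, with Ccl22 at 3879 RPKM in KO and 4409 RPKM in WT and Ccl17 at 104 RPKM in KO and 125 RPKM in WT. Of 9 chemokine receptors 3 were counted as higher and 0 as lower. Among them were Cxcr2, the receptor for the neutrophil-attracting CXC ligands (8.59 RPKM in KO and 2.75 RPKM in WT), and Ccr2. Cxcr2 and Ccr2 are also in the neutrophil and monocyte marker lists.

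**Figure D3:**
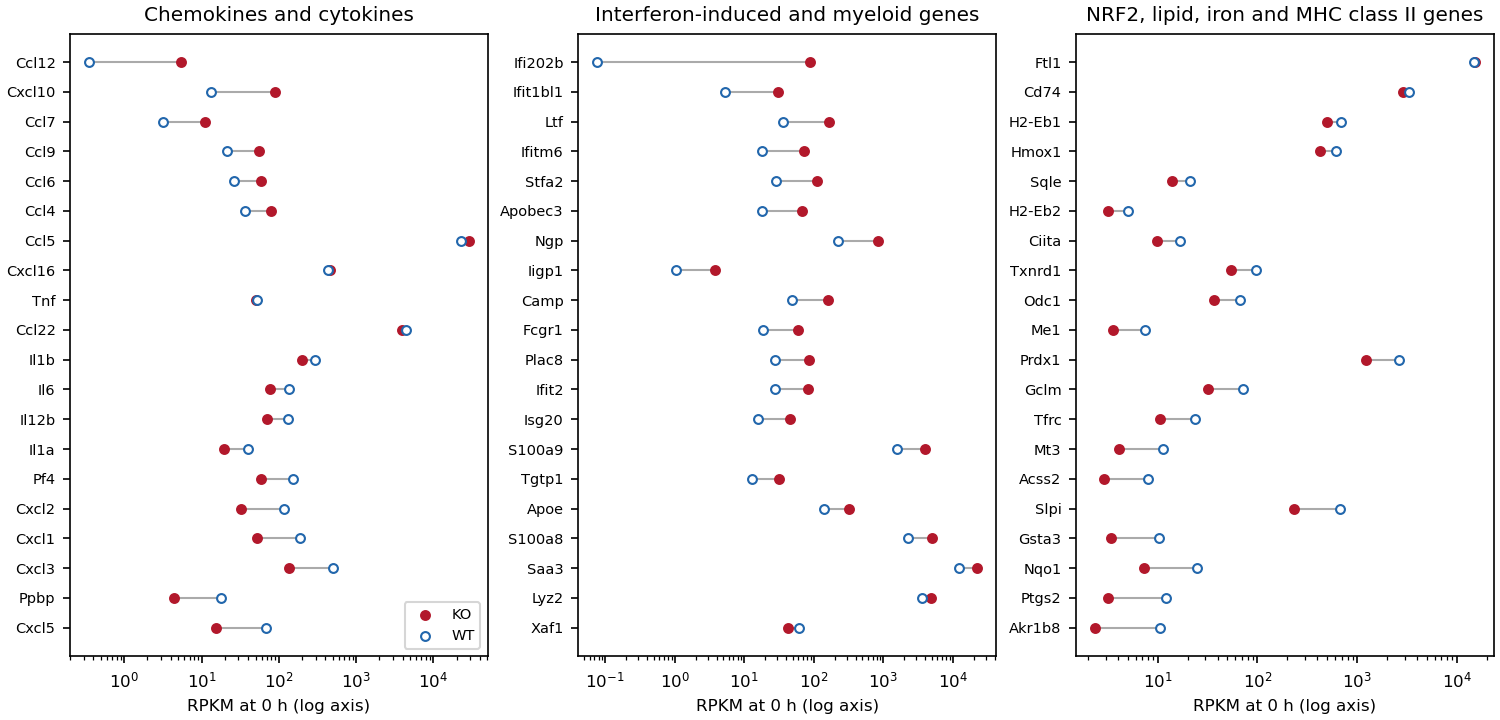
RPKM at 0 h on a log axis in KO (filled red) and WT (open blue) for chemokines and cytokines (left), interferon-induced and myeloid genes (middle) and NRF2, lipid, iron and MHC class II genes (right), ordered by ratio from the highest at the top. In the left panel the neutrophil-attracting CXC ligands lie at the bottom, with Cxcl5 at 15.4 RPKM in KO and 68.1 RPKM in WT, and Tnf is at 51.2 RPKM in KO and 52.1 RPKM in WT.

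The cytokines of LPS-matured cells were split. Of 11 members of the IL-12 and IL-6 families and related growth factors, 6 were counted as lower and 0 as higher (median -0.65). The list median was -0.09 at 3 h and -0.47 at 6 h. Il12b, the shared subunit of IL-12 and IL-23, was at 70.7 RPKM in KO and 131 RPKM in WT (log2 ratio -0.91), and its partner Il12a at 9.44 RPKM in KO and 15.6 RPKM in WT (-0.74). Il6 was at 75.9 RPKM in KO and 134 RPKM in WT (-0.85). Also counted as lower were Csf3, the neutrophil growth factor (0.184 RPKM in KO and 2.18 RPKM in WT), Il10 (1.86 RPKM in KO and 3.55 RPKM in WT) and Lif (11.9 RPKM in KO and 18.4 RPKM in WT), and Csf3 and Il10 lie at levels where ratios were poorly determined. Ebi3, a subunit of IL-27 and IL-35, was at 165 RPKM in KO and 176 RPKM in WT, and Il15 at 82.1 RPKM in KO and 64.5 RPKM in WT. With ERCC scaling the list had 1 member counted as lower and 2 as higher. Il12b, Il6 and Lif are on the study's list, and of the other 8 members 3 were counted as lower.

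In the interleukin-1 family 4 of 9 were counted as lower and 0 as higher (median -0.35, which turned to 0.04 with ERCC scaling). The median was -0.15 over members with a mean of at least 5 RPKM. At 3 h and 6 h the list median was -0.12 and 0.00. Il1a was at 19.7 RPKM in KO and 39.9 RPKM in WT, Il1b at 197 RPKM in KO and 294 RPKM in WT, and Il1f9 at 25.9 RPKM in KO and 41.7 RPKM in WT. Il1f6 was at 0.885 RPKM in KO and 1.99 RPKM in WT, a level at which ratios were poorly determined. The natural antagonist Il1rn was at 87.7 RPKM in KO and 77.3 RPKM in WT and Il18 at 9.82 RPKM in KO and 7.63 RPKM in WT, both under the threshold. The 4 counted genes all encode agonists of the family. Among 11 TNF superfamily ligands 2 were counted in each direction. Ltb and the death ligand Tnfsf10 (2.26 RPKM in KO and 1.27 RPKM in WT) were higher, and the T cell co-stimulators Cd70 (6.25 RPKM in KO and 12.7 RPKM in WT) and Tnfsf4 (43.5 RPKM in KO and 65.9 RPKM in WT) were lower. Tnf itself had a log2 ratio of -0.05.

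The signalling chain from TLR4 to NF-kB was read at like levels. Of 27 members 1 was counted as higher and 0 as lower, with a median of -0.01. The one was the LPS-binding protein Lbp (3.00 RPKM in KO and 0.849 RPKM in WT), at a level where ratios were poorly determined. The adaptor Tirap, which recruits MyD88 and whose mRNA the study describes as an m6A target, was at 4.72 RPKM in KO and 4.28 RPKM in WT. The study, too, reports similar Tirap mRNA in both genotypes, with less Tirap protein in KO. Myd88 was at 66.9 RPKM in KO and 45.0 RPKM in WT (log2 ratio 0.54), and the co-receptors Cd14 and Ly96 at 300 and 34.4 RPKM in KO, against 413 and 45.5 RPKM in WT (-0.48 and -0.43), all under the threshold. Tlr4 was at 4.49 RPKM in KO and 5.14 RPKM in WT, and Rela at 109 RPKM in KO and 83.1 RPKM in WT. Among 24 feedback inhibitors of NF-kB and MAP kinases 0 were counted in either direction (median 0.09), and Zc3h12c (11.6 RPKM in KO and 16.6 RPKM in WT) and Nfkbid (19.7 RPKM in KO and 13.4 RPKM in WT) were at the ends. Of 19 immediate-early transcription factors 3 were counted in each direction, with Egr1, Ier2 and Klf2 higher and Myc, Egr2 and Maff lower. Myc, a driver of growth, was at 1.26 RPKM in KO and 3.18 RPKM in WT, and Ier2 at 43.2 RPKM in KO and 24.9 RPKM in WT.

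Genes of both arms of antigen presentation were mostly under the threshold. Of 11 MHC class II genes 0 were counted as higher and 2 as lower, and 10 lay below the median gene (median -0.32, which turned to 0.06 with ERCC scaling). Ciita, the transactivator of the class II genes, was at 9.79 RPKM in KO and 16.8 RPKM in WT (log2 ratio -0.80). H2-Eb2 was at 3.19 RPKM in KO and 5.07 RPKM in WT (-0.68) and is on the study's list. The abundant H2-Eb1 was at 503 RPKM in KO and 686 RPKM in WT (-0.47), and Cd74, the invariant chain, at 2884 RPKM in KO and 3315 RPKM in WT (-0.23). Ctss, the cathepsin that cuts the invariant chain, was the one above the median gene, with a log2 ratio of 0.20. Of 20 genes of class I presentation 0 were counted in either direction and 17 lay above the median gene (median 0.32), and the difference between the arms was not tested. The peptide transporter subunit Tap1 was at 192 RPKM in KO and 131 RPKM in WT (0.52), and H2-K1 at 2546 RPKM in KO and 1903 RPKM in WT (0.39).

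Co-stimulatory and checkpoint molecules were close to the median gene, with 2 of 18 counted as higher, 1 as lower and a median of -0.04. The co-stimulators that the study measured by protein were not counted. For Cd40 and Cd80 the study also reports mRNA, at similar levels in both genotypes, with less protein in KO. Cd40 was at 99.8 RPKM in KO and 111 RPKM in WT (log2 ratio -0.17), Cd80 at 75.4 RPKM in KO and 90.4 RPKM in WT (-0.29), and Cd86 at 79.5 RPKM in KO and 80.5 RPKM in WT (-0.04). Counted as higher were the inhibitory receptor Ctla4 (3.25 RPKM in KO and 1.52 RPKM in WT) and the inhibitory ligand Pdcd1lg2 (11.6 RPKM in KO and 7.22 RPKM in WT), and as lower Havcr2 (0.982 RPKM in KO and 1.71 RPKM in WT). Ctla4 and Havcr2 lie at levels where ratios were poorly determined. Cd274, which encodes PD-L1, was at 181 RPKM in KO and 158 RPKM in WT.

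NRF2 targets, genes of antioxidant defence and glutathione metabolism, had 13 of 28 counted as lower in KO, 0 as higher and a median of -0.56. With ERCC scaling 8 were counted as lower and 1 as higher. Nqo1, a quinone reductase and the classic target, was at 7.28 RPKM in KO and 24.7 RPKM in WT (log2 ratio -1.77). The aldo-keto reductase Akr1b8 was at 2.36 RPKM in KO and 10.6 RPKM in WT (-2.15), and the glutathione transferase Gsta3 at 3.39 RPKM in KO and 10.4 RPKM in WT (-1.61). Of the most abundant members, the ferritin chains Fth1 and Ftl1, given above, were not counted (0.04 and -0.015), and they hold most of the list's summed level of 42930 RPKM in KO and 44200 RPKM in WT. Prdx1, a peroxiredoxin chosen after its value was seen, was at 1215 RPKM in KO and 2625 RPKM in WT, and Gclm, the regulatory subunit of glutathione synthesis, at 32.3 RPKM in KO and 71.6 RPKM in WT. Haem oxygenase Hmox1 was at 424 RPKM in KO and 616 RPKM in WT (-0.56), just short of the threshold. Its log2 ratio was -0.02 at 3 h and 0.89 at 6 h, where it was higher in KO. The factor itself, Nfe2l2, was at 91.9 RPKM in KO and 92.3 RPKM in WT, and its inhibitor Keap1 at 40.1 RPKM in KO and 31.0 RPKM in WT. The study's list holds 6 of the 28, and over the other 22 the count was 7 lower, 0 higher, with a median of -0.38. The antioxidant response element, searched as TGACNNNGC on both strands, was in 18.1% of promoters of genes counted as lower, 13.4% of those counted as higher and 17.2% of all.

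Some genes of lipid synthesis were lower as well. Of 17 genes of fatty acid synthesis and desaturation 5 were counted as lower and 0 as higher (median -0.29, which turned to 0.09 with ERCC scaling). They were Acss2, which makes acetyl-CoA from acetate (2.88 RPKM in KO and 8.02 RPKM in WT), the pyruvate carboxylase Pcx (2.12 RPKM in KO and 5.21 RPKM in WT), the malic enzyme Me1 (3.57 RPKM in KO and 7.38 RPKM in WT), the phosphatidate phosphatase Lpin1 (2.67 RPKM in KO and 5.26 RPKM in WT) and the desaturase Fads2 (9.64 RPKM in KO and 14.7 RPKM in WT). All of them but Acss2 are on the study's list, as is Acss1, and over the other 12 members the count was 1 lower and 0 higher, with a median of -0.13. Of 21 sterol genes 0 were counted as higher and 2 as lower (median -0.29, which turned to 0.09 with ERCC scaling), namely Acat2 (5.22 RPKM in KO and 8.21 RPKM in WT) and Sqle (13.8 RPKM in KO and 20.9 RPKM in WT), and 18 of the 21 lay below the median gene.

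Other metabolic lists had medians near that of all genes and a few counted members each. Ptgs2, the inducible cyclooxygenase, was at 3.21 RPKM in KO and 11.98 RPKM in WT (log2 ratio -1.89), and the phospholipases Pla2g4f and Pla2g4a at 3.38 and 3.32 RPKM in KO, against 8.35 and 5.67 RPKM in WT, while the prostaglandin and leukotriene list had a median of 0.01 over 18 genes, with 3 counted as lower. The arginine, nitric oxide and polyamine list had 3 of 13 counted as higher, 1 as lower and a median of 0.01. Gatm, which takes arginine into creatine synthesis, was at 20.3 RPKM in KO and 4.92 RPKM in WT (1.99), Arg1 at 14.4 RPKM in KO and 5.86 RPKM in WT and the inducible nitric oxide synthase Nos2 at 7.12 RPKM in KO and 3.06 RPKM in WT. The polyamine enzyme Odc1 went the other way, at 36.4 RPKM in KO and 66.4 RPKM in WT. Of 15 genes of iron handling and metallothioneins 1 was counted as higher and 2 as lower (median -0.17). The ferrireductase Steap3 was at 2.39 RPKM in KO and 1.23 RPKM in WT, the transferrin receptor Tfrc at 10.6 RPKM in KO and 23.5 RPKM in WT and the metallothionein Mt3 at 4.09 RPKM in KO and 11.3 RPKM in WT. Slpi, a secreted protease inhibitor, was the most abundant of the 15 genes with the lowest ratios, at 234 RPKM in KO and 670 RPKM in WT (-1.54). Of 20 glycolysis genes 1 was counted, Pfkm, which was lower (2.13 RPKM in KO and 3.39 RPKM in WT), and the median was 0.00.

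The lowest ratio was that of Amd1, a gene with a near-identical copy. Amd1, an S-adenosylmethionine decarboxylase of polyamine synthesis, was listed at 0.105 RPKM in KO and 13.1 RPKM in WT (log2 ratio -6.03), and the copy Amd2 at 25.5 RPKM in KO and 13.1 RPKM in WT, where it was counted as higher. Summed over both, the level was 25.6 RPKM in KO and 26.2 RPKM in WT (-0.06). Of the 13 counted genes listed at 0 in 1 of the libraries (5 in WT and 8 in KO), 12 are small RNA genes or their short hosts, which poly(A) libraries capture poorly.

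The machinery of m6A outside Mettl3 was read at like levels. Of 23 writers, erasers and readers tested 1 was counted, Mettl5, a ribosomal RNA methyltransferase, at 4.40 RPKM in KO and 7.49 RPKM in WT, and the median was -0.04. Mettl14, the partner of Mettl3, was at 4.93 RPKM in KO and 4.49 RPKM in WT, and Wtap, which holds the complex in nuclear speckles, at 40.6 RPKM in KO and 34.0 RPKM in WT. The erasers Fto and Alkbh5 were at 11.1 and 22.2 RPKM in KO, against 12.6 and 22.4 RPKM in WT. The reader Ythdf1 was at 19.97 RPKM in KO and 18.24 RPKM in WT. The enzymes that remove mRNA, namely deadenylases, decapping factors and the exosome, had 0 of 30 counted and a median of -0.05.

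Housekeeping groups stayed close to the median gene. The median was 0.14 over 77 cytosolic ribosomal proteins (1 counted as higher and 2 as lower), 0.11 over 77 mitochondrial ribosomal proteins (1 higher, 0 lower), 0.05 over 71 nuclear genes of oxidative phosphorylation (0 counted) and 0.00 over 36 proteasome subunits (0 counted). Zinc finger genes named Zfp had 10 of 242 counted as lower and 2 as higher (median -0.07). Cell division and DNA replication genes had 5 of 30 counted as higher and 0 as lower (median 0.18). The 5 were late cell-cycle genes, Ccnb2 (2.79 RPKM in KO and 1.09 RPKM in WT), Ube2c (7.60 RPKM in KO and 3.55 RPKM in WT), Birc5 (7.90 RPKM in KO and 3.84 RPKM in WT), Aurka (3.12 RPKM in KO and 1.57 RPKM in WT) and Cdc20 (3.95 RPKM in KO and 2.13 RPKM in WT), and Ccnb2, Aurka and Cdc20 are below a mean of 5 RPKM, where 4 of 13 ERCC transcripts passed the same threshold. At 6 h the ratios of these 3 genes had turned, at -0.66, -0.50 and -0.27. The replication genes Mcm2 and Pcna were at 5.83 and 68.7 RPKM in KO, against 5.85 and 70.3 RPKM in WT.

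Further lists are given here with their counts. Some shares lay off the background, with 15.4% of heat shock chaperones counted as higher and 13.3% of C-type lectins and scavenger receptors as lower. Each of these shares rests on 2 genes. Of 7 tested mast cell, basophil and eosinophil markers 3 were counted as higher and 1 as lower (median 0.10), among them the eosinophil granule protein Prg2 (7.38 RPKM in KO and 3.43 RPKM in WT). Of 9 fibroblast and endothelial markers 3 were higher and 1 lower (0.20), with the collagen Col1a1 at 3.25 RPKM in KO and 1.35 RPKM in WT. Of 2 B cell markers tested 1 was higher, Cd79b (1.52 RPKM in KO and 0.644 RPKM in WT), at a level where ratios were poorly determined. Of 8 T and NK cell markers 2 were lower, and of 2 erythroid and megakaryocyte markers Pf4 alone was lower. Cholesterol efflux genes had 1 of 8 counted as higher, Apoe (median 0.16). C-type lectins and scavenger receptors had 1 of 15 higher and 2 lower (-0.03), with the fungal receptor Clec4n at 160 RPKM in KO and 382 RPKM in WT. Inflammasome genes had 1 of 17 in each direction (0.00), leukocyte integrins and adhesion molecules 1 of 13 higher (-0.14), and heat shock chaperones 2 of 13 higher (0.02), the inducible Hspa1a (3.88 RPKM in KO and 1.76 RPKM in WT) and Hspa1b (4.34 RPKM in KO and 2.31 RPKM in WT). Hspa1a and Hspa1b are near-identical copies that cannot be told apart with certainty, and both lie at levels where ratios were poorly determined. In each of 2 lists 1 gene was counted, as lower, over 28 lysosomal genes (0.05) and over 20 genes of the stress and unfolded protein responses (-0.12). Of 37 tripartite motif genes 1 was higher and 2 lower (0.15), of 170 solute carriers 3 were higher and 6 lower (-0.04), and 0 were counted of 21 BCL2 family and cell death genes (0.08) and of 33 aminoacyl-tRNA synthetases (-0.09).

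**Figure D4:**
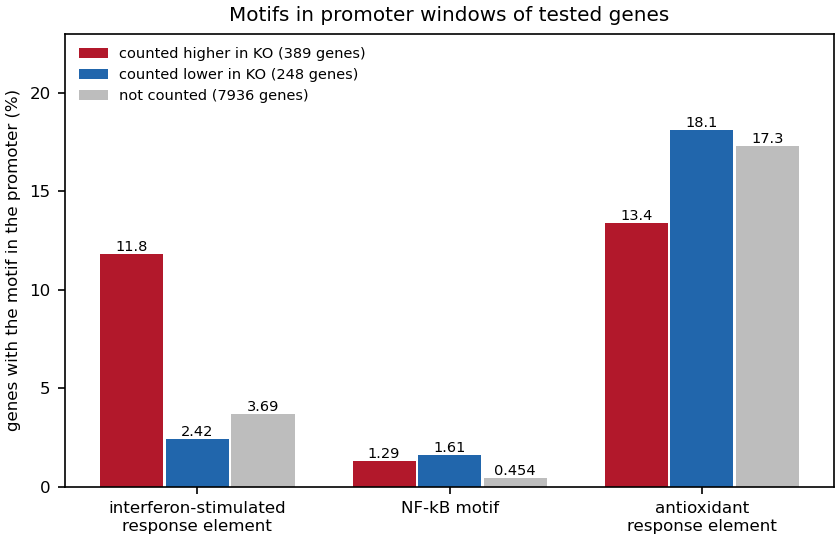
Share of genes (percent, bars from 0) with each motif between 250 bases before and 50 after a start site, for genes counted as higher in KO, counted as lower and not counted. The interferon-stimulated response element was in 11.8% of the first, 2.42% of the second and 3.69% of the third.

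The study's list of transcripts lower in KO had 44 of 52 tested members counted as lower and 0 as higher, with a median of -0.85, and 52 lay below the median gene. The study selected this list on RNA sequencing of such cells, so its count is a description and no independent evidence of direction. The members that missed the threshold included Spic (8.09 RPKM in KO and 11.02 RPKM in WT) and Atp6v0c (598 RPKM in KO and 662 RPKM in WT). With ERCC scaling 22 were counted as lower and 0 as higher. Of 315 genes counted as lower at 0 h the list thus takes 44.

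The 3 h and 6 h libraries of both genotypes, which are taken after transcription was blocked, give a partial check of each gene at 0 h, since they are separate libraries but may come from the same cultures and also reflect mRNA decay. Of the 499 genes counted as higher, 379 (76%) lay above the median gene at both later times, and of the 315 counted as lower, 234 (74.3%) lay below it, against 34.2% of all tested genes on either side. Above a mean of 5 RPKM the shares were 87.8% and 83.8%. Cxcl10 had log2 ratios of 2.72, 2.92 and 2.81 at 0, 3 and 6 h, and Nqo1 -1.77, -2.03 and -1.54. The ratios of several neutrophil genes were smaller at the later times, with Camp at 1.70, 1.14 and 0.36 and S100a8 at 1.13, 0.50 and -0.41. Akr1b3 was counted as lower at 0 h only, with -1.40, 0.24 and -0.31.

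**Figure D5:**
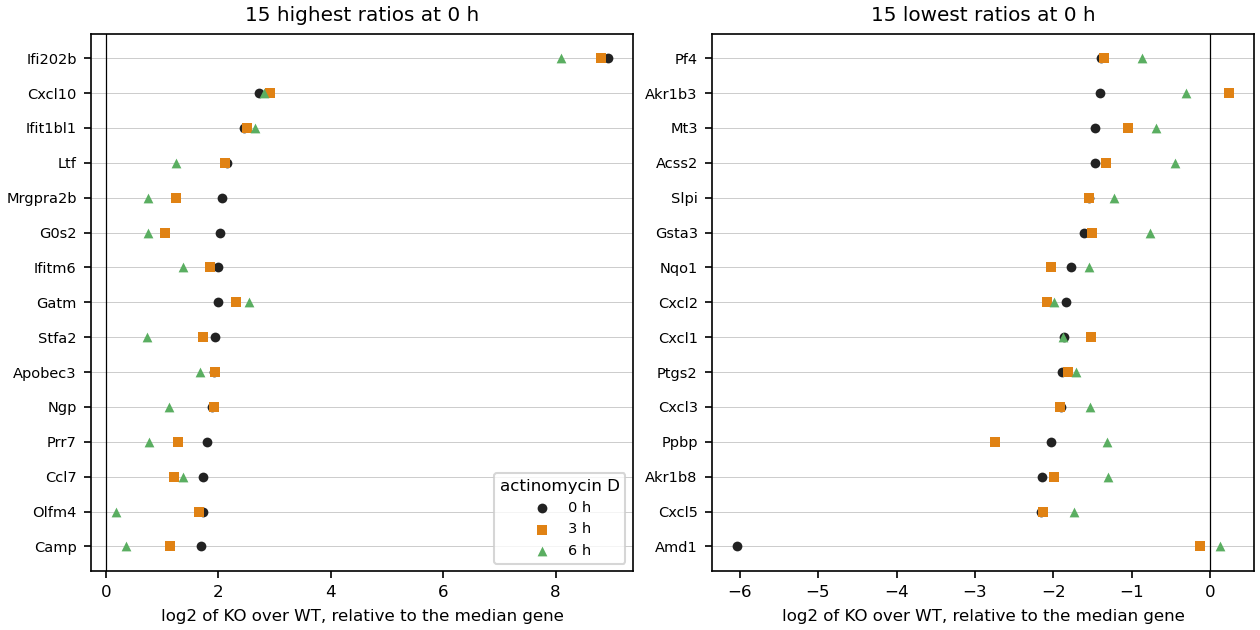
Log2 of KO over WT relative to the median gene at 0 h (circles), 3 h (squares) and 6 h (triangles) of actinomycin D, for the 15 genes with the highest (left) and the 15 with the lowest (right) ratios at 0 h among counted genes of at least 5 RPKM. On the left every gene kept its sign at all 3 times, and on the right Akr1b3 and Amd1 did not.

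Counted genes were spread over the autosomes. Between 2.37% and 6.34% of tested genes of a chromosome were counted as higher and between 1.34% and 4.36% as lower. Within 5 Mb of Mettl3, 6 of 89 tested genes were counted as higher (6.74%) and 1 as lower.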

How the data were processed

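RPKM per gene were deposited by the authors, 1 column per library, as RPKM plus 1 times a library factor (1.290 for KO and 1.000 for WT at 0 h). RPKM was recovered as the value over its column's minimum, minus 1. The submitters' processing notes name bcl2fastq, TopHat2 (2.0.14), Cuffnorm and mm10, but neither a gene annotation nor a strand setting. The 2 columns of the authors' lifetimes were not used, and 27 rows with dates in place of names were left out. Of the remaining symbols 22650 matched RefSeq (GRCm38.p6) directly, 1074 by synonym and 112 not at all. Depth was estimated from the smallest steps of RPKM and is approximate.

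A pseudocount of 0.1 RPKM was used, which understates differences of weakly expressed genes, and genes averaging at least 1 RPKM over both libraries were kept. The calculation (Python 3.11.15, pandas 2.3.3) was tested on simulated data. The members, 54 gene lists and thresholds were chosen with earlier results of these data known. Genes named are those the study discusses, the 15 highest and 15 lowest ratios among counted genes of at least 5 RPKM (no unnamed models, small RNA genes or ribosomal pseudogenes), up to 4 list members at either end, all counted members of lists with at most 5, and the 10 most abundant in KO. Others were chosen after their values were seen: S100a9, Prdx1, Zbtb46, Pax5, Mpo, Elane, Csf1r, Cd68, Amd2, Pydc3, Fto, Alkbh5, Mcm2, Pcna, Cd274, Ifnar1, Ifnb1, Il12a, Jak1 and Lif. The list symbol Cxc11 was read as Cxcl1. Some genes of these lists are not reported here.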

Additional observations from a re-analysis of the deposited data

Results flagged for a closer look

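The X-inactivation RNA Xist, which lies outside the autosomal genes compared, was at 33.9 RPKM in KO and 0.041 RPKM in WT at 0 h. The Y-linked genes Eif2s3y and Kdm5d were at 0.023 and 0.015 RPKM in KO, against 33.1 and 5.8 RPKM in WT. The same split held at 3 h and 6 h, where Xist was at 35.8 and 39.6 RPKM in KO, against 0.043 and 0.10 RPKM in WT. Of 337 X-linked genes 11 were 1.5-fold or more higher in KO and 12 lower (median -0.08). The cultures therefore differed in sex as well as genotype, and the part of sex in the autosomal differences cannot be told apart from that of genotype.

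Rpl26, a ribosomal protein gene with many near-identical copies, was lower in KO at 0 h (log2 ratio -0.64) and higher by more than 1.5-fold at 3 h and 6 h (1.10 and 0.96). The difference between times was not tested.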

How the results depend on the processing

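The numbers of genes counted as higher and lower in KO (499 and 315) moved with the filter and the scale. With a pseudocount of 1 RPKM they were 354 and 197, with a mean of at least 5 RPKM and its own centring 231 and 145, and with no filter on low values 1682 and 1104. With ERCC scaling and no centring they were 2337 and 98, and at 2-fold 167 and 92. RPKM without centring (539 and 288), a trimmed mean of log ratios (497 and 316) and the same direction at 3 h and 6 h (379 and 234) stayed within 1.5 times. The 98 genes lower with ERCC scaling were all among the 315. The median gene lay at 0.39 with ERCC scaling, against 0.03 on RPKM, and the SD of ERCC ratios above 5 RPKM was 0.18, or 0.16 with a pseudocount of 1 RPKM. Among printed counted genes none changed sign with the pseudocount or without centring. At 3 h the sign turned for Acat2 (0.060), Akr1b3 (0.24), Il1f6 (0.061), Rpl26 (1.10) and Ube2c (-0.64). At 6 h it turned for Amd1 (0.13), Aurka (-0.50), Ccnb2 (-0.66), Cdc20 (-0.27), Egr1 (-0.47), Havcr2 (0.34), Il1b (0.0021), Pla2g4a (0.31), Rpl26 (0.96) and S100a8 (-0.41). The cause was not tested. No paired analysis was possible because each group holds 1 library at 0 h, and leaving out a replicate could not be run for the same reason. Depth limits genes of 1 to 5 RPKM most, where 15.7% of genes passed 1.5-fold against 4.65% at 5 to 50 RPKM.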
